A study of Mus musculus with 6 samples.

Results

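The genes described here are 10 genes of the cardiac muscle cell, Actc1, Myh6, Nppa, Myl4, Myl7, Tnnt2, Tnni3, Pln, Ryr2 and Ttn, as measured in lungs of embryonic mice. They were read from every probe set, a group of short array features that report 1 transcript, whose annotation gave exactly 1 gene symbol and whose symbol was 1 of the 10. They are 10 of 12393 genes named in this way on the array, read by 17 of its 22626 mouse probe sets, and 2 further probe sets that list a member together with other genes were not used. The 10 genes were chosen by their measured expression values, which were high in 1 of the 3 mutant arrays, so that neither their genotype difference nor their standing in that array is a finding. Both are given below as a description, with the counts and intervals of the fit over all mouse probe sets set beside them only to show the spread.

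The study used whole-lung RNA to find transcripts that depend on insulin-like growth factor 1, a secreted growth factor. The 3 Igf1-/- arrays carried RNA from lungs of homozygous null embryos, and the 3 Igf1+/+ arrays RNA from lungs of wild-type control embryos. All embryos were at embryonic day 18.5, came from matings of heterozygous parents on a C57BL/6J background, and carried no other allele or agent named in the labels. The null allele is present in every cell of the embryo, and the labels describe the lungs as pooled before RNA extraction without saying how many lungs went into 1 array, while the methods speak of 3 lungs of each genotype handled apart. The methods describe embryos of this age delivered by caesarean section and left to breathe air for a short time before the lungs were taken. Whether trachea, large vessels or heart base were trimmed away was not given in the sources used here.

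Cardiac muscle contracts through sarcomeres, in which myosin thick filaments pull on actin thin filaments, troponin on the thin filament senses calcium, and the giant protein titin spans each sarcomere unit as a spring. In the mouse this muscle is not restricted to the heart, since a sleeve of atrial-type cardiac muscle cells continues from the left atrium along the pulmonary veins into the lung. Atrial muscle differs from ventricular muscle in its myosin light chains, in sarcolipin and in its production of atrial natriuretic peptide. In whole-lung RNA, a larger number of such cells and more of the transcript per cell cannot be told apart.

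Values are log2 expression values after robust multi-array averaging (RMA), so that a difference of 1 is a doubling, and levels are compared between arrays within a probe set, never between probe sets. The 6 arrays had medians between 6.85 and 6.89, and their pairwise correlations over all mouse probe sets lay between 0.992 and 0.996. The surfactant gene Sftpc, which marks alveolar type II cells, was between 14.4 and 14.5 in all 3 Igf1-/- arrays and close to 14.4 in all 3 Igf1+/+ arrays. The highest value of any probe set was 14.5 to 14.6 in each array, so that Sftpc lay near the ceiling and could show little difference. The 15 measured genes of a lung identity list averaged 11.1 to 11.4 in Igf1-/- arrays and 11.2 to 11.4 in Igf1+/+ arrays. Igf1 itself was lower on average in Igf1-/- lungs at its 3 probe sets. At 1 of them the Igf1-/- values of 6.15, 6.33 and 6.46 all lay below the Igf1+/+ values of 6.60, 7.12 and 6.97, while at the other two the genotypes overlapped and no probe set passed an adjusted p of 0.10 (lowest limma adjusted p = 0.15). Which part of the transcript these probe sets read relative to the deleted part was not given in the sources used here.

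The array of Igf1-/- replicate 3 stood apart from the other 5 for the cardiac muscle genes. It held the highest of the 6 values at 16 of the 17 probe sets and at the brightest probe set of all 10 genes, whereas the same array was highest at 18.3% of all mouse probe sets. It exceeded the highest of the other 5 arrays by more than 1 log2 unit at 9 of the 17 probe sets, against 15 probe sets of the whole array (0.0663%). Of these 15 probe sets, 9 belonged to the 10 genes and the other 6 to Myl1, Sln, Ankrd1, Tnnc1, Actn2 and Csrp3, all of them on the lists of muscle genes described below, so that none lay outside the muscle lists. The values closest to that limit were those of Tnni3, 1.00 above the next array and just inside it, and of Tnni1, a slow skeletal and fetal cardiac troponin, 0.98 above and just outside it. These counts restate how the genes were chosen, and the shares over all mouse probe sets are given for scale. Because a single array carried the excess, the genotype differences of the 10 genes are given with and without Igf1-/- replicate 3.

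**Figure D1:**
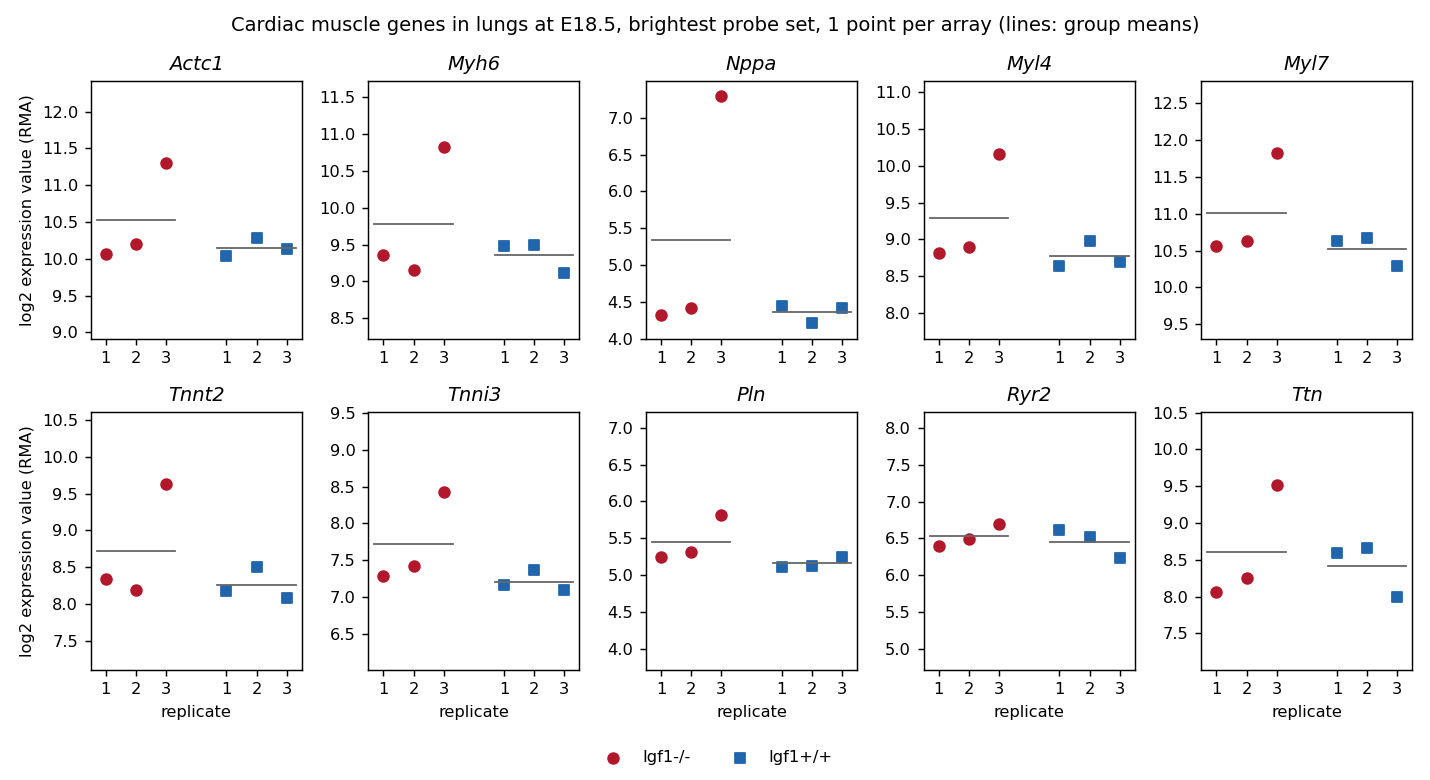
The log2 expression value (y axis, 3.5 log2 units in each panel) of the 10 cardiac muscle genes at the brightest probe set, with 1 point per array (x axis, replicate) and Igf1-/- lungs to the left of Igf1+/+ lungs. Grey lines are group means. Igf1-/- replicate 3 is the highest point in all 10 panels, from 0.25 log2 units above the mean of the other Igf1-/- arrays for Ryr2 to 2.92 for Nppa.

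As examples of regulatory sequence, the 250 bases before the annotated start are printed for Nppa, Myl7, Actc1 and Ryr2. The first 3 stood more than 1 log2 unit above the other arrays in Igf1-/- replicate 3, and Ryr2 stood out least. Myh6 and Myl4, not printed, stood further above the other arrays (1.34 and 1.19) than Myl7 and Actc1 (1.16 and 1.02). The printed genes were chosen after the values were seen, as the members whose window overlapped no annotated gene. The sequences are from RefSeq on mouse build GRCm38.p6 and read 5′ to 3′ along the gene, with Nppa at chr4:148000472-148000721 on the plus strand, and with Myl7 at chr11:5898783-5899032, Actc1 at chr2:114052876-114053125 and Ryr2 at chr13:12106946-12107195 on the minus strand. Capitals mark matches, on either strand, to GATAA (the core of GATA factor sites), AAGTG (the core of NKX2-5 sites), CATTCC (the core of TEAD sites), TATAAA, the CArG box bound by serum response factor and the MEF2 box.
Nppa: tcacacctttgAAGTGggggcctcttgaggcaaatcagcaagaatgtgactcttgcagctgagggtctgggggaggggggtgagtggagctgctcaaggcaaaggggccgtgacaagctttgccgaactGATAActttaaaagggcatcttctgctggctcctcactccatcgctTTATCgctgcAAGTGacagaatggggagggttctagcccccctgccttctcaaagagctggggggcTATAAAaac
Myl7: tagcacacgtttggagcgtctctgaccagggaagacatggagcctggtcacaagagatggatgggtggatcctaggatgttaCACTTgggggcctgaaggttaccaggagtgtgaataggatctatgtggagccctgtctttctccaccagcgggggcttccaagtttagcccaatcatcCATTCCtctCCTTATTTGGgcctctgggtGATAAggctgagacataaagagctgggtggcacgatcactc
Actc1: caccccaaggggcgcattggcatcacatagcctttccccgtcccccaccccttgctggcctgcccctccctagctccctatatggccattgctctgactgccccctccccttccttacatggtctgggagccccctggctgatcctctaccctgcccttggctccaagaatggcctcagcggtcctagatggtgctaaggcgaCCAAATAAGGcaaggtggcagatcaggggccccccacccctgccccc
Ryr2: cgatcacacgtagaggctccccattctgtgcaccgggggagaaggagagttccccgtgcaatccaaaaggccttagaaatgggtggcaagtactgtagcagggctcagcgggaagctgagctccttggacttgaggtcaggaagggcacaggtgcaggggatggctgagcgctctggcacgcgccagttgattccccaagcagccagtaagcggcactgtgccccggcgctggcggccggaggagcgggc

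The Myl7 window held a CATTCC match at positions -70 to -65, a CArG box at -61 to -52 and a GATAA match at -41 to -37, counted back from the base before the start, in addition to AAGTG further upstream. The Nppa window held a pair of GATAA matches and a pair of AAGTG matches, and Actc1 a single CArG box at -47 to -38. No searched motif occurred in the Ryr2 window. The same held for the Tnni3 window and for 1 of the windows of Tnnt2, genes that stood more than 1 log2 unit above the other arrays in Igf1-/- replicate 3. The 10 genes had 11 such windows in the table, since Tnnt2 had 2. Among the 10 genes a CArG box was found for 2, Actc1 and Myl7, against 1.47% of all 32851 windows of mouse genes in the table. GATAA occurred for 4 genes against 22.6% of all windows, AAGTG for 5 against 40.7%, CATTCC for 3 against 12.6%, TATAAA for 2 against 12.4% and the MEF2 box for 1, Ttn, against 2.92%. Such matches describe the letters only.

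Among the thick filament genes, Myh6 encodes the alpha myosin heavy chain, the motor of atrial muscle and of the adult mouse ventricle. Its brighter probe set measured 9.36, 9.15 and 10.83 in Igf1-/- lungs (replicates 1 to 3), against 9.48, 9.49 and 9.11 in Igf1+/+ lungs. Igf1-/- replicates 1 and 2 lay within the Igf1+/+ range, and replicate 3 lay 1.34 above the highest other array, which is 2.98-fold the mean of the other Igf1-/- arrays. The mean difference, Igf1-/- minus Igf1+/+, was 0.42 ± 0.37 (SE, n = 3 arrays each), and -0.10 without Igf1-/- replicate 3. At the second Myh6 probe set, which was dim, all 6 arrays lay between 3.63 and 4.15, with the highest value again in Igf1-/- replicate 3 and a difference of 0.08 ± 0.14 that was -0.09 without it.

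Myl4 and Myl7 encode the essential and the regulatory light chain of atrial myosin. Myl4 measured 8.82, 8.90 and 10.17 in Igf1-/- lungs, against 8.64, 8.98 and 8.70 in Igf1+/+ lungs. Myl7 measured 10.57, 10.63 and 11.82 in Igf1-/- lungs, against 10.63, 10.67 and 10.29 in Igf1+/+ lungs. Both light chains therefore overlapped between genotypes in all but the same single array, which was 2.47-fold the mean of the other Igf1-/- arrays for Myl4 and 2.34-fold for Myl7. The mean difference was 0.52 ± 0.31 for Myl4 and 0.48 ± 0.29 for Myl7 (SE, n = 3 each), and 0.09 and 0.07 without Igf1-/- replicate 3. A second Myl4 probe set did not share this shape. It measured 5.92, 6.01 and 6.07 in Igf1-/- lungs, against 5.90, 5.83 and 5.77 in Igf1+/+ lungs, so that the genotypes did not overlap but all 6 values were within 0.30 log2 units (difference 0.17 ± 0.08, and 0.13 without Igf1-/- replicate 3).

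The thin filament genes shared the same highest array. Actc1, the actin of cardiac sarcomeres, measured 10.07, 10.20 and 11.30 in Igf1-/- lungs, against 10.03, 10.28 and 10.13 in Igf1+/+ lungs. The 5 lower arrays differed by at most 0.25, and replicate 3 was 2.24-fold the mean of the other Igf1-/- arrays. The mean difference of 0.38 ± 0.27 (SE, n = 3 each) was -0.01 without that array, with a 95% interval of -0.25 to 0.23.

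Tnnt2 encodes cardiac troponin T, which anchors the troponin complex to tropomyosin. The brighter of its 2 probe sets, of a type that may also read similar transcripts, measured 8.33, 8.18 and 9.62 in Igf1-/- lungs, against 8.18, 8.51 and 8.09 in Igf1+/+ lungs. The other Tnnt2 probe set measured 8.08, 7.72 and 9.39 in Igf1-/- lungs, against 8.03, 8.35 and 7.64 in Igf1+/+ lungs. Both probe sets of the gene thus placed Igf1-/- replicate 3 more than 1 log2 unit above every other array, and their mean differences of 0.46 ± 0.33 and 0.39 ± 0.37 were 0.00 and -0.11 without it. Tnni3, cardiac troponin I, the inhibitory subunit that replaces the slow skeletal form as the heart matures, measured 7.29, 7.43 and 8.43 in Igf1-/- lungs, against 7.16, 7.37 and 7.09 in Igf1+/+ lungs. For Tnni3 replicate 3 was 2.10-fold the mean of the other Igf1-/- arrays, and the mean difference of 0.51 ± 0.26 was 0.15 without it (95% interval -0.10 to 0.40).

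Ttn, which encodes titin, was the gene with the widest spread among the remaining 5 arrays. Its brighter probe set measured 8.07, 8.25 and 9.52 in Igf1-/- lungs, against 8.60, 8.66 and 8.00 in Igf1+/+ lungs. Here Igf1-/- replicates 1 and 2 lay below Igf1+/+ replicates 1 and 2, and Igf1+/+ replicate 3 was the lowest array. The difference accordingly changed sign, with 0.19 ± 0.34 over all arrays and -0.26 without Igf1-/- replicate 3 (95% interval -0.70 to 0.18). The second Ttn probe set measured 6.82, 7.06 and 8.17 in Igf1-/- lungs, against 7.00, 7.12 and 6.35 in Igf1+/+ lungs, with a difference of 0.52 ± 0.33 that was 0.11 without that array.

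Among the chosen genes at their brightest probe sets, Pln and Ryr2, which act in calcium handling, stood out least in Igf1-/- replicate 3. This did not extend to calcium handling as a class. Sln and Casq2, described below, lay 1.35 and 0.90 log2 units above the highest other array in Igf1-/- replicate 3. Pln encodes phospholamban, the inhibitor of the calcium pump of the sarcoplasmic reticulum, and its brightest probe set measured 5.24, 5.31 and 5.81 in Igf1-/- lungs, against 5.11, 5.12 and 5.24 in Igf1+/+ lungs. The lowest Igf1-/- and the highest Igf1+/+ value were equal to 2 decimals, so that the genotypes only just failed to overlap, and replicate 3 was 1.45-fold the mean of the other Igf1-/- arrays (difference 0.30 ± 0.14, and 0.12 without it). At the other two Pln probe sets, both dim, all values lay between 3.82 and 4.57 and the differences were 0.15 ± 0.08 and 0.11 ± 0.09, or 0.12 and 0.04 without Igf1-/- replicate 3. Ryr2 encodes the cardiac ryanodine receptor, through which calcium leaves the sarcoplasmic reticulum, and is also expressed outside the heart. Its brighter probe set measured 6.40, 6.49 and 6.69 in Igf1-/- lungs, against 6.61, 6.51 and 6.24 in Igf1+/+ lungs. Replicate 3 was the highest Ryr2 value by only 0.08, and the difference of 0.07 ± 0.12 was -0.01 without it. At the dim second probe set of Ryr2, the only one of the 17 at which Igf1-/- replicate 3 was not the highest array, Igf1-/- lungs measured 4.33, 4.15 and 4.33 and Igf1+/+ lungs 4.14, 4.16 and 4.29, a difference of 0.08 ± 0.09 that was 0.05 without that array.

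Nppa encodes the precursor of atrial natriuretic peptide, the hormone of atrial muscle cells, and was among the dim probe sets in all arrays but 1. It measured 4.32, 4.42 and 7.29 in Igf1-/- lungs, against 4.44, 4.21 and 4.42 in Igf1+/+ lungs. Of the 6 arrays 5 were within 0.24 log2 units of one another, below the lower quartile of 4.93 for the mean values of all mouse probe sets, while Igf1-/- replicate 3 lay above the median of 6.88. That array lay 2.92 log2 units above the mean of the other Igf1-/- arrays, and no fold is given because the values it is set against are so dim. The difference of 0.99 ± 0.66 (SE, n = 3 each) was 0.01 without it, with a 95% interval of -0.23 to 0.25.

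Over the 17 probe sets, all 17 were higher on average in Igf1-/- lungs, with a median difference of 0.38 against 0.03 over all mouse probe sets, and 11 were higher and 6 lower without Igf1-/- replicate 3, with a median of 0.04 against 0.02. None of the 17 was called by limma at an adjusted p under 0.10, beside 0.557% of all mouse probe sets (0.164% higher in Igf1-/-), and none had an unadjusted p under 0.05, beside 12.5%. Without Igf1-/- replicate 3 these counts were again 0 and 0, beside 0.199% and 9.21%. In that comparison the 95% intervals of all 17 probe sets spanned 0 and their bounds lay between -0.70 and 0.61 log2 units, which is 0.62-fold to 1.52-fold. The genotypes did not overlap, with Igf1-/- higher, at 2 of the 17 probe sets, the dimmer Myl4 and the brightest Pln probe set, beside 10.8% of all mouse probe sets. The residual spread within genotypes had a median of 0.48 log2 units over the 17 probe sets, against 0.11 over all, and 10 of the 17 lay above the 99th percentile of all probe sets. Of the 17, 5 had a mean value under the lower quartile and 8 under the median of all mouse probe sets.

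**Figure D2:**
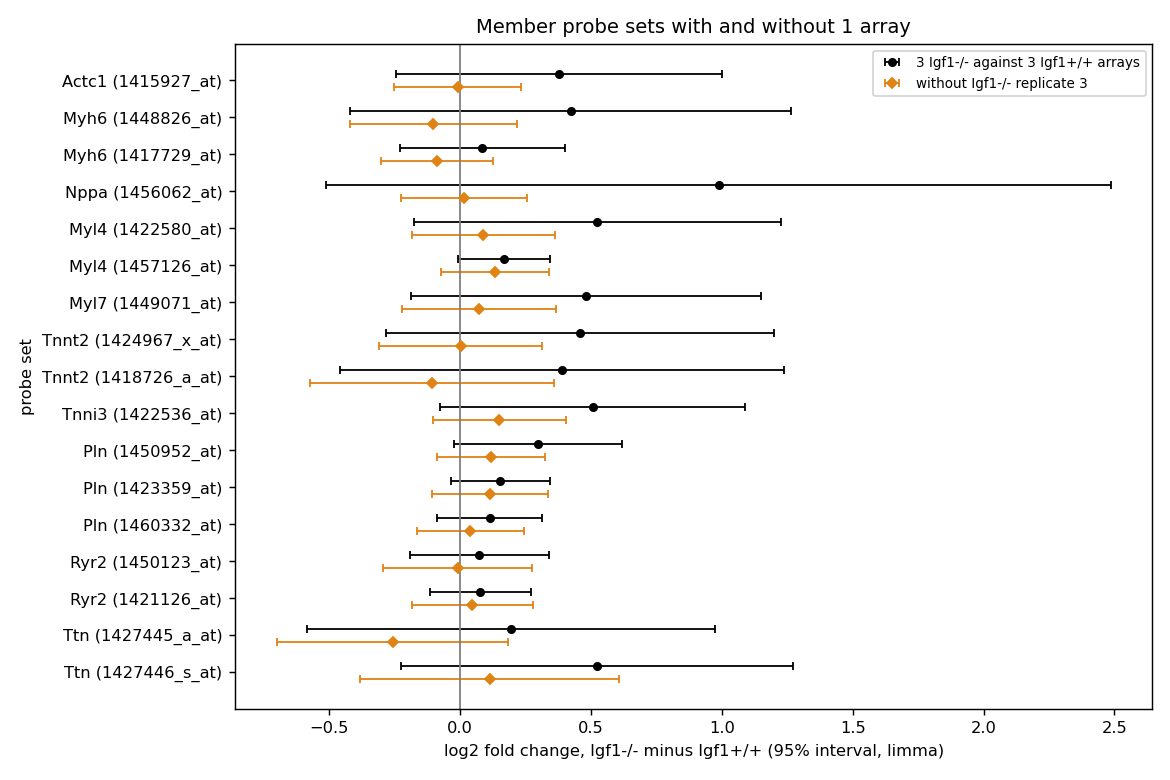
The log2 fold change of the 17 probe sets (x axis, Igf1-/- minus Igf1+/+, with 95% intervals from limma) over 3 arrays per genotype (black circles) and without Igf1-/- replicate 3 (orange diamonds). All 17 black points lie above 0, between 0.07 and 0.99, and the orange points lie between -0.26 and 0.15.

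Averaged over the 10 genes at the brightest probe sets, the deviation from the mean of all arrays was -0.23, -0.18 and 1.07 in Igf1-/- replicates 1 to 3, against -0.19, -0.10 and -0.35 in the Igf1+/+ arrays. The arrays spanned 1.42 log2 units in all and 0.25 without Igf1-/- replicate 3. Summed on the linear scale, the 10 genes gave 4590 to 11298 array units in Igf1-/- lungs and 4135 to 5170 in Igf1+/+ lungs. Igf1+/+ replicate 3 was the lowest array for 6 of the 10 genes, Igf1+/+ replicate 1 for 3 and Igf1+/+ replicate 2 for 1.

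**Figure D3:**
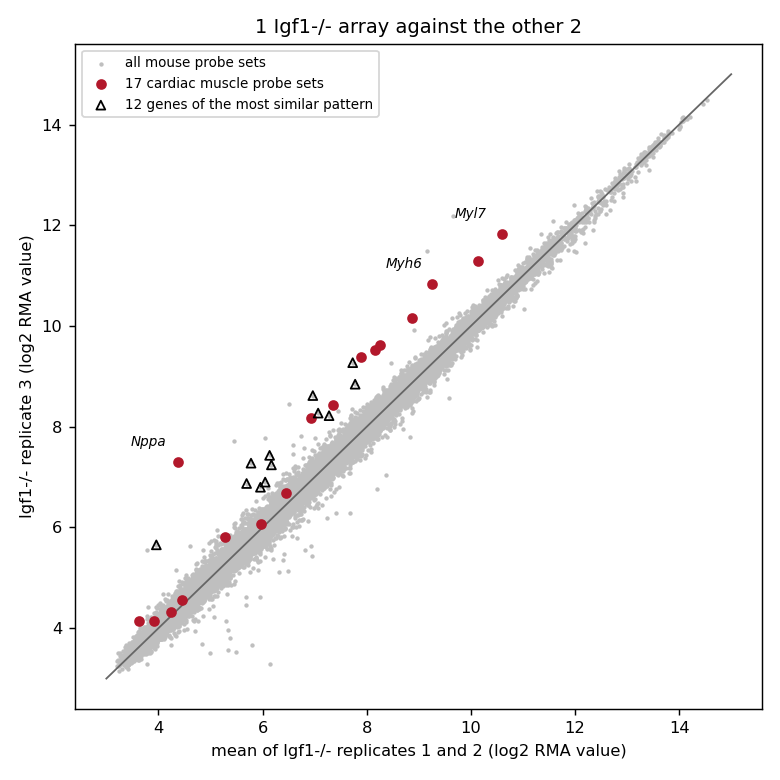
The log2 value in Igf1-/- replicate 3 (y axis) against the mean of Igf1-/- replicates 1 and 2 (x axis), with grey points for all 22626 mouse probe sets, red points for the 17 cardiac muscle probe sets, triangles for the 12 genes of the most similar pattern and the line of equal values. The cardiac muscle probe sets lie above the line, Nppa by 2.92 log2 units.

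Other genes of cardiac muscle, from a list of 38 of which 35 were measured, were in part highest in the same array. No gene of that list passed the adjusted p of 0.10 in limma in either direction at any probe set, and 3 of the 35 had an unadjusted p under 0.05 at the brightest one. Among these Cryab, a small heat shock protein that lung also expresses, came closest, with a difference of -0.63 ± 0.12, or -0.66 without Igf1-/- replicate 3 (limma adjusted p = 0.10 over all arrays, and 0.042 to 0.088 under 4 alternative settings). The median difference was 0.11, and -0.01 without Igf1-/- replicate 3, and 24 of the 35 were highest in that array. Tnnc1, the calcium-binding troponin C of cardiac and slow muscle, measured 7.85, 7.61 and 9.27 in Igf1-/- lungs, against 8.07, 8.12 and 8.08 in Igf1+/+ lungs. Actn2, the alpha-actinin that crosslinks actin at the Z-disc, measured 6.07, 6.19 and 7.43 in Igf1-/- lungs, against 6.38, 6.33 and 6.10 in Igf1+/+ lungs. Csrp3, a muscle LIM protein of the Z-disc, measured 6.99, 7.14 and 8.27 in Igf1-/- lungs, against 7.05, 7.24 and 6.95 in Igf1+/+ lungs. In all 3 genes only Igf1-/- replicate 3 lay above the Igf1+/+ range, as it did for Ankrd1, a stress-responsive ankyrin repeat protein. Without that array the differences were -0.36 for Tnnc1, -0.13 for Actn2, -0.01 for Csrp3 and -0.46 for the brighter Ankrd1 probe set. For Tnnc1 and Ankrd1, Igf1-/- replicates 1 and 2 lay below all Igf1+/+ values. The brighter Ankrd1 probe set measured 6.06, 6.04 and 7.77 in Igf1-/- lungs, against 6.20, 6.86 and 6.47 in Igf1+/+ lungs. The Ankrd1 probe set counted above as over 1 log2 unit was a dimmer one. It measured 5.68, 5.21 and 7.71 in Igf1-/- lungs, against 5.98, 6.43 and 6.29 in Igf1+/+ lungs (difference -0.03, and -0.79 without Igf1-/- replicate 3).

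Lists of genes that mark regions of the heart were read next. On a list of atrial and pulmonary vein muscle genes, 10 of 12 were measured, none was called by limma and 2 had an unadjusted p under 0.05, and 3 were highest in Igf1-/- replicate 3. Sln, which encodes sarcolipin, an atrial regulator of the calcium pump, was 1 of these 3, with 6.96, 6.97 and 8.62 in Igf1-/- lungs and 7.07, 7.26 and 6.86 in Igf1+/+ lungs. Kcnj3, a subunit of the acetylcholine-gated potassium channel of the atrium, differed little, with 5.28, 5.64 and 5.81 in Igf1-/- lungs and 5.41, 5.37 and 5.47 in Igf1+/+ lungs. Nr2f1 and Dkk3, which are not particular to muscle, differed by -0.27 ± 0.13 and -0.35 ± 0.09 (-0.34 for both without Igf1-/- replicate 3), and neither was called.

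On the ventricular list 11 of 12 genes were measured, with none called by limma, 3 with an unadjusted p under 0.05 and 3 highest in Igf1-/- replicate 3. Myl2, the ventricular regulatory light chain, measured 4.79, 5.21 and 5.46 in Igf1-/- lungs, against 4.70, 4.86 and 4.79 in Igf1+/+ lungs, and stayed among the dimmer probe sets in all arrays. Myl3, the ventricular essential light chain, lay between 6.62 and 6.71 in Igf1-/- lungs and between 6.52 and 6.57 in Igf1+/+ lungs. The beta myosin heavy chain Myh7, which slow skeletal fibres also use, measured 9.57, 9.40 and 9.49 in Igf1-/- lungs, against 9.48, 9.12 and 9.23 in Igf1+/+ lungs, with Igf1-/- replicate 3 between the other Igf1-/- arrays. Nppb, the natriuretic peptide of the ventricle, differed by 0.09 ± 0.12 and the gap junction gene Gja1 by -0.35 ± 0.11, or by -0.02 and -0.31 without Igf1-/- replicate 3.

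Transcription factors of cardiac development, all 12 of them measured, showed no call in limma, 2 unadjusted p-values under 0.05 and a median difference of 0.03, or 0.04 without Igf1-/- replicate 3. That array was highest for 2 of the 12. One was Nkx2-5, a homeodomain factor of cardiac muscle cells, with 5.51, 5.43 and 5.78 in Igf1-/- lungs and 5.23, 5.47 and 5.23 in Igf1+/+ lungs. Tbx5, which the lung mesenchyme also expresses, measured 9.29, 9.27 and 9.49 in Igf1-/- lungs, against 9.21, 9.23 and 9.12 in Igf1+/+ lungs. Mef2c and Isl1 differed by -0.13 ± 0.13 and -0.01 ± 0.11, or by -0.18 and -0.04 without Igf1-/- replicate 3.

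Skeletal muscle genes were in part highest in the same array. Of 30 listed genes 28 were measured, none was called by limma and 2 had an unadjusted p under 0.05, and 14 of the 28 were highest in Igf1-/- replicate 3. The list averaged 4.95 to 5.18 in Igf1-/- arrays and 4.88 to 4.96 in Igf1+/+ arrays, and its sum on the linear scale was 1274 to 1812 array units in Igf1-/- arrays and 1197 to 1273 in Igf1+/+ arrays. Myl1, the light chain of fast fibres, measured 3.83, 4.09 and 5.65 in Igf1-/- lungs, against 4.02, 4.20 and 4.22 in Igf1+/+ lungs. Tnni1, the slow skeletal troponin I that the fetal heart also uses, measured 7.69, 7.87 and 8.85 in Igf1-/- lungs, against 7.30, 7.55 and 7.24 in Igf1+/+ lungs, so that its genotypes did not overlap (difference 0.77 ± 0.26, limma adjusted p = 0.285, and 0.41 without Igf1-/- replicate 3). Ckm, the creatine kinase of striated muscle, measured 7.45, 7.45 and 8.32 in Igf1-/- lungs, against 7.51, 7.47 and 7.56 in Igf1+/+ lungs. Tnnt1, slow skeletal troponin T, was highest in the same array by less, at 6.51, 6.17 and 6.85 in Igf1-/- lungs, against 6.69, 6.76 and 6.73 in Igf1+/+ lungs. The part of skeletal muscle in the values of the 10 genes was not tested.

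Lists for other tissues near the lung or in its wall were read in the same way. All 13 smooth muscle genes were measured, with no call in limma, 1 unadjusted p under 0.05, a median difference of -0.07 and 4 genes highest in Igf1-/- replicate 3, and Acta2, the actin of smooth muscle, measured 11.68, 11.77 and 11.96 in Igf1-/- lungs, against 11.84, 11.92 and 12.14 in Igf1+/+ lungs. Among thymus, brown fat and oesophagus genes, with 9, 8 and 9 genes measured, none was called by limma, 0, 1 and 1 had an unadjusted p under 0.05, and 5, 3 and 2 were highest in that array. Among 7 epicardium and mesothelium genes Msln, a surface protein of mesothelial cells, fell by 0.65 ± 0.10 (limma adjusted p = 0.039), with a difference of -0.56 without Igf1-/- replicate 3. Among 10 cartilage genes Hapln1, a link protein of the matrix, fell at 3 probe sets by 0.39, 0.66 and 0.55 (limma adjusted p = 0.091, 0.089 and 0.069), with differences of -0.41, -0.63 and -0.54 without that array. Leaving out any 1 array other than Igf1-/- replicate 2 (Msln, 0.093) or Igf1+/+ replicate 3 ended the Msln call, with an adjusted p between 0.10 and 0.14, and leaving out any but Igf1+/+ replicate 3 ended the Hapln1 calls, with values between 0.13 and 0.28. Of the genes on these lists, 3 epicardium and mesothelium genes and 4 cartilage genes were highest in Igf1-/- replicate 3. Its mean deviation over these lists and the smooth muscle list was between 0.03 and 0.12, against 1.07 for the 10 genes.

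The lung identity list went the other way in that array. None of its 15 measured genes was highest in Igf1-/- replicate 3 and 6 were lowest there, beside 13.1% of all mouse probe sets, and the list deviated by 0.04, 0.07 and -0.18 in Igf1-/- replicates 1 to 3, against 0.08, -0.04 and 0.03 in the Igf1+/+ arrays. Between genotypes, 9 of the 15 were higher and 6 lower in Igf1-/- lungs, with a median difference of 0.09, or 0.16 without Igf1-/- replicate 3. In either direction, 10 of the 15 had an unadjusted p under 0.05 in limma, beside 12.5% of all mouse probe sets. Aqp5, the water channel of alveolar type I cells, was the only gene of the list called by limma. It fell by 0.98 ± 0.12 (limma adjusted p = 0.017, and 0.026 to 0.083 when 1 array was left out, with a difference of -0.84 without Igf1-/- replicate 3), with 9.01, 8.99 and 8.57 in Igf1-/- lungs and 9.90, 9.85 and 9.76 in Igf1+/+ lungs. The part of the lower lung identity values of Igf1-/- replicate 3 in the values of the cardiac muscle genes was not tested.

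**Figure D4:**
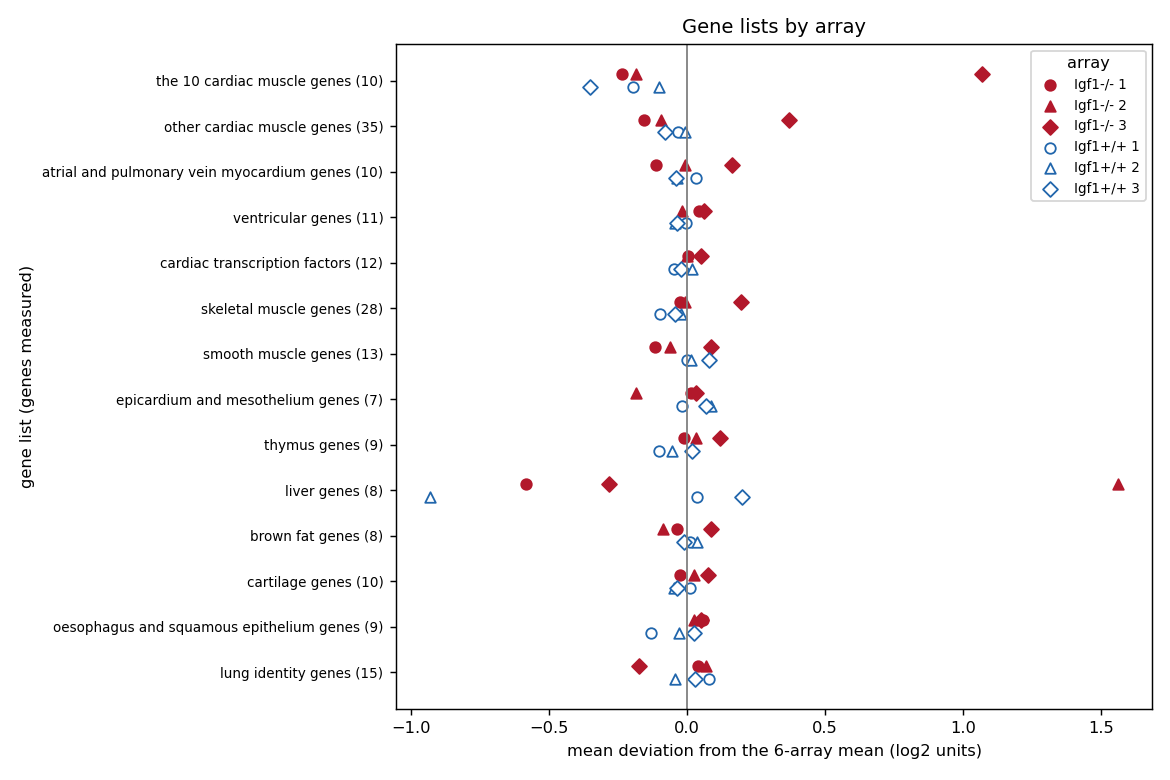
The mean deviation of each gene list from its own mean over 6 arrays (x axis, log2 units), with 1 row per list, filled red symbols for the Igf1-/- arrays and open blue symbols for the Igf1+/+ arrays. Igf1-/- replicate 3 (filled diamonds) lies at 1.07 for the 10 cardiac muscle genes, at 0.37 for the other cardiac muscle genes and at -0.18 for the lung identity genes.

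The genes whose pattern over the 6 arrays was most like the mean of the 10 were found among named probe sets with a range of at least 1 log2 unit. The 12 closest were Sln, Csrp3, Actn2, Casq2, Mybpc3, Sh3bgr, Myl1, Myom1, Smpx, Tnni1, Lum and Tnnc1, with Pearson's r between 0.928 and 0.995 over 6 arrays. All 12 reached that range only through Igf1-/- replicate 3, and spanned 0.24 to 0.74 among the other arrays. Their r over 6 arrays thus mostly restates a high value in that array. As a description, 10 of them were on the muscle lists, and the share among all probe sets of this range is not given. Without Igf1-/- replicate 3, r for these genes lay between -0.05 (Tnnc1) and 0.99 (Myom1), and it was 0.90 for both Sln and Csrp3, 0.70 for Actn2 and 0.15 for Mybpc3. The likeness of Tnnc1, Myl1 (r = -0.03 without it) and Mybpc3 thus came from that array, and that of Sln, Csrp3 and Myom1 was also present among the other 5 arrays. Casq2, the calcium buffer of the cardiac sarcoplasmic reticulum, measured 5.65, 5.74 and 6.87 in Igf1-/- lungs, against 5.80, 5.97 and 5.80 in Igf1+/+ lungs. Mybpc3, a cardiac protein that binds myosin and titin, measured 7.21, 7.34 and 8.22 in Igf1-/- lungs, against 7.10, 7.31 and 7.27 in Igf1+/+ lungs. Lum, which encodes lumican, a proteoglycan of connective tissue and not a muscle gene, measured 5.66, 5.90 and 7.28 in Igf1-/- lungs, against 6.12, 6.40 and 5.95 in Igf1+/+ lungs. Casq2 and Lum lay above the Igf1+/+ range in Igf1-/- replicate 3 alone, and Mybpc3 also in replicate 2, by 0.03.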

How the data were processed

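RNA from lungs of Igf1-/- and Igf1+/+ embryos was hybridised by the authors to 3-prime mouse expression arrays, 3 per genotype, without any batch in the labels. The deposited log2 values were made by the authors with robust multi-array averaging (RMA) over 12 arrays, which included 6 of cochlea that were not analysed here. Differences of dim probe sets are compressed in such values. Of 22690 probe sets, 64 controls were left out. Symbols came from the platform annotation: 691 mouse probe sets with several symbols and 1555 with none were not named.

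Igf1-/- minus Igf1+/+ was fitted with limma 3.58.1 in R 4.3.3 over all 22626 mouse probe sets (lmFit, eBayes, Benjamini-Hochberg adjustment, called at adjusted p under 0.10), and the script was tested on simulated data. The significance analysis of microarrays named in the methods regroups the arrays and was not used. Where 1 probe set stood for a gene, it was the one with the highest mean over 6 arrays. Nothing in the labels says whether the 3 samples of a genotype came from separate litters, and p-values measure only the spread between these samples, while the number of arrays limits their precision.

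The 10 genes and all lists (other cardiac muscle, atrial and pulmonary vein, ventricular, cardiac transcription factors, skeletal and smooth muscle, epicardium and mesothelium, thymus, liver, brown fat, cartilage, oesophagus, lung identity) were chosen with earlier results of these data known. Named were every probe set of the 10 genes; called genes and the 4 with the widest range in the cardiac and skeletal lists; called genes and the 2 with the highest mean in the other lists, of which those that bear on the text are printed; and the 12 most similar genes. Genes outside this rule (Myl3, and those in the closing observations) were chosen after their values were seen. Promoter windows came from RefSeq by gene ID, which matched all 10 genes. Alternatives were quantile normalisation, median centring, a replicate block, a variance trend with robust estimates, array weights, a filter on dim probe sets, other thresholds, other choices of probe sets and leaving out each array.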

Additional observations from a re-analysis of the deposited data

How the results depend on the processing

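Under each alternative tried 0 of the cardiac muscle probe sets that it kept were called. Not all alternatives kept all 17, and the filter on dim probe sets left out 8, among them all those of Nppa, Pln and Ryr2. The genes were chosen by a high value in 1 array, so that this count is a description only. The differences of the 10 genes at the brightest probe sets kept their sign under each change of processing, while leaving out Igf1-/- replicate 3 turned that of Actc1, Myh6, Ryr2 and Ttn and leaving out Igf1+/+ replicate 3 that of Ryr2 and Ttn (to -0.04 and -0.02). Over all mouse probe sets limma called 126, with 204 under a variance trend and robust estimates, 628 with array quality weights, 54 at an adjusted p under 0.05, 588 at 0.20, and 45 to 710 when 1 array was left out (45 without Igf1-/- replicate 3, 710 without Igf1+/+ replicate 3). The range of the mean of the 10 genes between arrays, 1.42 log2 units, was 1.28 with all probe sets of each gene averaged, and 0.25 to 1.42 when 1 array was left out (0.25 without Igf1-/- replicate 3, 1.30 without Igf1+/+ replicate 3). Of the other cardiac muscle genes 0 were called, and 1 with a replicate block, with a variance trend and robust estimates, with array quality weights, with dim probe sets left out and at an adjusted p under 0.20, and 0 to 1 when 1 array was left out. It was each time Cryab, with a difference of -0.63 (-0.72 to -0.60 over these settings; adjusted p = 0.10; 0.042 to 0.088 under the first 4 of these, and 0.049 without Igf1+/+ replicate 3).

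The labels number the replicates 1 to 3 in both genotypes, and deviations of same-numbered arrays correlated by -0.04, -0.23 and -0.14. With 3 arrays per genotype, these correlations cannot decide whether same-numbered arrays shared a litter or a batch. With the replicate block limma called 138 probe sets. The signal limits what can be read at the 5 cardiac muscle probe sets below the lower quartile. The cause of the differences between settings was not tested.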

Other observations

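Igf1-/- replicate 2, rather than replicate 3, was the array that stood out for liver genes. Of 10 listed genes 8 were measured, none was called by limma and 1 had an unadjusted p under 0.05 at the brightest probe set, and 7 of the 8 were highest in that array. Alb, serum albumin, measured 6.83, 10.81 and 7.79 in Igf1-/- lungs, against 8.15, 6.10 and 8.67 in Igf1+/+ lungs, so that the genotypes overlapped and the other 5 arrays also spanned more than 2 log2 units. Afp, alpha-fetoprotein, measured 4.59, 9.31 and 5.44 in Igf1-/- lungs, against 7.18, 3.76 and 6.73 in Igf1+/+ lungs. Igf1-/- replicate 2 exceeded all other arrays by more than 1 log2 unit at 21 probe sets, of which 13 named a liver gene of the list and 0 a cardiac muscle gene of the 10.

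In Igf1-/- replicate 3, 47 probe sets lay more than 0.5 log2 units above all other arrays, of which 11 belonged to the 10 cardiac muscle genes, 16 to single genes of the muscle lists and 20 to neither, with 1 probe set that names both Myh7 and Myh6 counted among the 20. Among the 20 were also secreted and matrix genes, named after their values were seen. Dcn, which encodes the proteoglycan decorin, measured 7.87, 8.46 and 9.52 in Igf1-/- lungs, against 8.45, 8.76 and 8.23 in Igf1+/+ lungs, and Mfap5, a microfibril protein, 6.44, 6.36 and 7.07 in Igf1-/- lungs, against 6.20, 6.45 and 6.28 in Igf1+/+ lungs. Ptn, which encodes the growth factor pleiotrophin, measured 6.48, 6.71 and 7.63 in Igf1-/- lungs, against 6.55, 6.75 and 6.00 in Igf1+/+ lungs at the brighter of the 2 probe sets concerned. Sfrp1, a secreted Wnt antagonist, differed from these 3 genes at the dim probe set concerned. All its Igf1-/- values, 5.04, 4.97 and 5.74, lay above the Igf1+/+ values of 4.50, 4.71 and 4.63 (difference 0.64 ± 0.18, limma adjusted p = 0.22, and 0.39 without Igf1-/- replicate 3). A brighter Sfrp1 probe set measured 6.11 on average in Igf1-/- replicates 1 and 2 and 6.30 in replicate 3. Rspo2 and Fmod, also among the 20, likewise had all Igf1-/- values above the Igf1+/+ values, as did 10.8% of all mouse probe sets.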
